A study of Drosophila melanogaster with 20 samples.

Results

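The larval storage proteins of Drosophila melanogaster and 2 further fat body proteins are described here in the RNA of whole adult flies. The genes are Lsp1alpha, Lsp1beta and Lsp1gamma, which encode the subunits of larval serum protein 1, Lsp2, which encodes larval serum protein 2, and the fat body protein genes Fbp1 and Fbp2. They were taken by gene name, with no measured value in the rule, but were chosen with earlier results of these data known. They are 6 of the 17276 genes in the expression table. All 6 passed the minimum level for testing in every comparison, and 18 peaks were assigned to 4 of them in the m6A lists.

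The larval serum proteins are hexamerins, storage proteins that the fat body of the last larval instar makes in large amounts and releases into the hemolymph. Near the time of pupariation they are taken back into the fat body and kept in protein granules, and their amino acids are used to build the adult. Fbp1 encodes a fat body protein that serves as the receptor for the uptake of larval serum protein 1, and Fbp2 encodes a fat body protein related in sequence to alcohol dehydrogenase. Fat body cells of larval origin persist in the newly emerged adult for a short time and are then lost, so that transcripts of these genes can be looked for in young flies.

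The series compares flies without writers of N6-methyladenosine (m6A) with yw flies, a laboratory strain marked by yellow and white. Poly(A) RNA came from whole adults of about 1 to 2 days, in 5 groups: yw females, yw males, Mettl3SK2/Df males (the SK2 allele over a deficiency of Mettl3, a gene also called Ime4), Mettl14SK1 males and Hakai4 males (named HakaiSH4 in the methods, a frameshift allele made with Cas9). Each mutant was represented by 1 allele, and only yw was sampled in both sexes. The paper describes Hakai homozygotes as semi-lethal, slow to develop, smaller and shorter-lived. The part of stage or condition in the levels below was not tested. Each group had 2 input libraries, which give the RNA level, and 2 libraries of fragments bound by an m6A antibody. Whether the 2 libraries of a group came from separate cultures was not stated, so the p-values below measure the spread between libraries, which may be technical.

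RNA levels were given as FPKM, fragments scaled to transcript length and to the total mapped in the library. Read totals are not in the files used here. The commonest value of FPKM times gene length, within a window of values, differed by 1.3-fold between the highest and the lowest library. This value rested on 25 to 99 genes in a library and could not leave the window, so it does not bound the differences in depth. The RNA of each mutated gene was lowest in its own genotype: Mettl3 was at 2.10 to 2.43 FPKM in Mettl3 males and 5.17 to 5.23 in yw males, Mettl14 at 1.77 to 2.02 in Mettl14 males and 4.19 to 4.25 in yw males, and Hakai at 0.767 to 1.22 in Hakai males and 2.47 to 3.36 in yw males. The labelled tissue is the whole fly, and testis and accessory gland markers summed to 1075 to 1109 and 733.2 to 1152 FPKM in yw males but to 12.04 to 13.45 and 2.01 to 2.37 FPKM in yw females. In whole flies, more cells of a type and more RNA per cell cannot be told apart.

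The genes lie apart from each other on 3 chromosomes, in Release 6 coordinates. Lsp1alpha (FBgn0002562) spans X:12490291-12492982 on the plus strand. Lsp1beta (FBgn0002563) spans 2L:898500-901316 on the plus strand, and Lsp1gamma (FBgn0002564) spans 3L:66430-68995 on the plus strand. Lsp2 (FBgn0002565) spans 3L:12129393-12131869 on the plus strand, and Fbp1 (FBgn0000639) spans 3L:14094589-14098053 on the minus strand. Fbp2 (FBgn0000640) spans 2L:9426784-9427917 on the plus strand, 1.12 Mb from Mettl14 and 10.2 Mb from Hakai on the same chromosome arm, while Lsp1beta lies 7.41 Mb and 18.7 Mb from them. The part of linked sequence in the levels of these genes was not tested. The Lsp1 genes encode related proteins, and how reads that fit more than 1 of them were shared out was not stated.

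Overlapping genes were checked for Lsp2 and Fbp2. The antisense gene asRNA:CR11538 covers 2096 bases of Lsp2 and was listed at 0 to 0.283 FPKM in all 10 input libraries. CG42847 shares 48 bases and the strand with the end of Fbp2. It was at 43.1 to 70.4 FPKM in the male libraries, with both Hakai libraries lowest, and at 0.847 to 0.931 FPKM in females, so its levels did not run in the order of those of Fbp2.

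Storage protein RNA was highest in Hakai males for every gene of the group. A gene was called changed where limma on log2(FPKM + 1) gave p under 0.05, before adjustment, and the log2 fold change reached 1 in either direction. This scale understates changes of low genes. Against yw males, all 6 genes were called higher in Hakai males, where 2.47% of the 13079 tested genes were called higher. In Mettl3 males 5 of the 6 were called higher, against 2.94% of tested genes. In Mettl14 males 1 of the 6 was called higher, against 3.4% of tested genes. None was called lower in these comparisons, and none of the estimates was below 0. The median log2 fold change of the 6 genes was 3.17 in Hakai, 1.93 in Mettl3 and 0.76 in Mettl14 males, where the median of all tested genes was 0.03, 0.03 and 0.11. These comparisons share the same yw male libraries, and the 6 genes were chosen with earlier results of these data known. No permutation test of 2 libraries against 2 can go below an exact p of 0.333, so the calls rest on variances shared across genes.

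**Figure D1:**
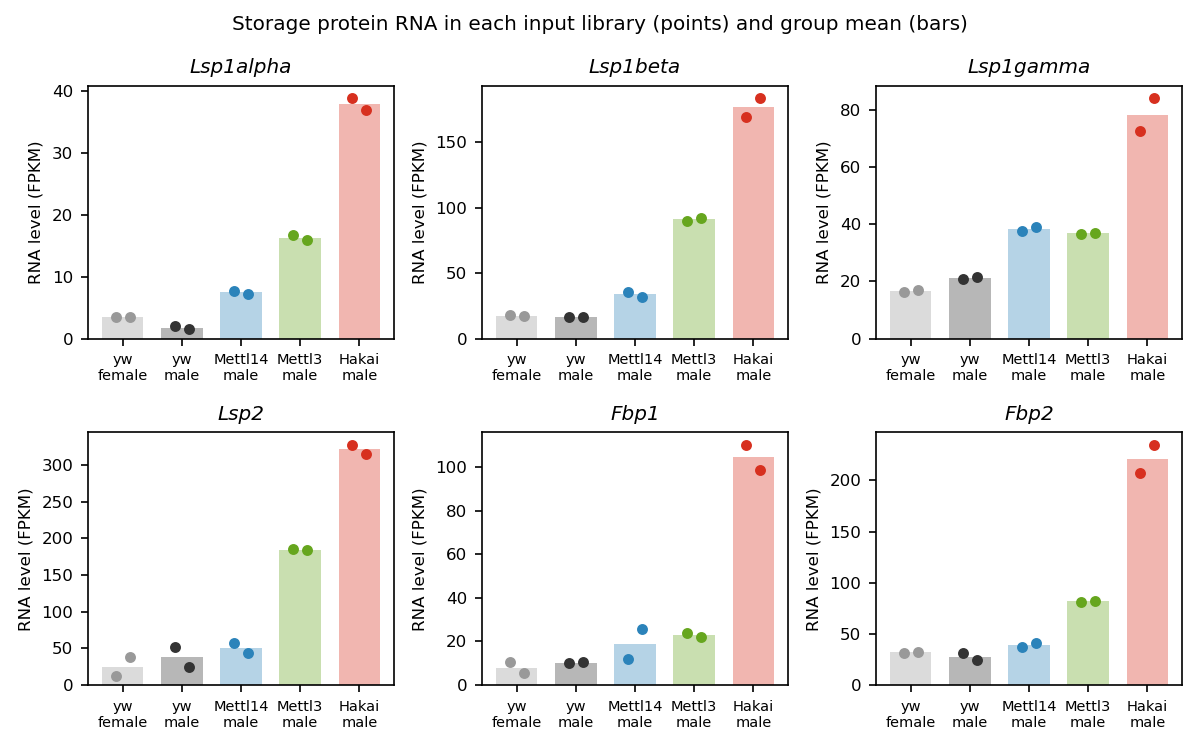
RNA level in FPKM (vertical axes, linear from 0) of the 6 storage protein genes in the 10 input libraries. Points are libraries and bars are means of 2 libraries in yw females, yw males, Mettl14, Mettl3 and Hakai males. The Hakai libraries are highest in every panel, and the Mettl3 libraries exceed those of Mettl14 for Lsp1alpha, Lsp1beta, Lsp2 and Fbp2.

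Lsp1alpha encodes the alpha subunit of larval serum protein 1. Its RNA level was 1.98 and 1.55 FPKM in the yw male libraries, the lowest of the 6 genes in every library of either sex. It was 7.75 and 7.12 FPKM in Mettl14, 16.8 and 15.8 FPKM in Mettl3 and 38.8 and 36.9 FPKM in Hakai males. No male groups overlapped, and the replicate libraries lay within 1.27-fold of each other in every group. The mean in Hakai males was 21.5-fold that in yw males, with a log2 fold change of 3.82 ± 0.11 (SE, limma, n = 2 per group, adjusted p = 2.55e-05), which ranked 9 among all tested genes. The mean of the Mettl3 libraries was 9.23-fold that of yw males, with a log2 fold change of 2.65 ± 0.11 (limma, adjusted p = 0.000156). In Mettl14 males it was 4.21-fold higher, a log2 fold change of 1.61 ± 0.11 (limma, adjusted p = 0.000402). It was the gene of the group with the largest estimate in each of these comparisons.

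Lsp1beta encodes the beta subunit. It was at 16.8 and 16.3 FPKM in yw males, 35.9 and 31.7 FPKM in Mettl14 males, 89.8 and 92.5 FPKM in Mettl3 males and 169.6 and 183.9 FPKM in Hakai males. The order of the groups was that of Lsp1alpha, again with no overlap. The mean rose 10.7-fold in Hakai males, a log2 fold change of 3.34 ± 0.10 (limma, adjusted p = 2.55e-05). The rise in Mettl3 males was 5.51-fold, with a log2 fold change of 2.39 ± 0.10 (limma, adjusted p = 0.000156). In Mettl14 males the ratio of the means was 2.05, and the log2 fold change of 0.99 ± 0.10 (limma, adjusted p = 0.00223) lay just under the fold needed for a call. It passed that fold without yw male replicate 1 (1.01) and without Mettl14 replicate 2 (1.07).

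Lsp1gamma encodes the gamma subunit and had the smallest estimates of the 3 Lsp1 genes in each mutant. It was at 20.8 and 21.7 FPKM in yw males, 37.5 and 39.0 FPKM in Mettl14 males and 36.7 and 36.9 FPKM in Mettl3 males. The Hakai libraries were at 72.5 and 84.1 FPKM, above all others. The 3.69-fold rise in Hakai males was a log2 fold change of 1.83 ± 0.10 (limma, adjusted p = 0.000214). The Mettl3 and Mettl14 libraries lay above both yw male libraries, with log2 fold changes of 0.77 ± 0.10 and 0.82 ± 0.10 (limma, adjusted p = 0.00774 and 0.00482), under the fold of a call. These 2 mutants differed in Lsp1gamma by a log2 fold change of -0.05 (95% interval -0.30 to 0.19), which turned to 0.04 when libraries were scaled to equal medians.

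Lsp2 encodes the subunit of the second hexamerin of the larval hemolymph. The yw male libraries were at 52.2 and 25.1 FPKM and differed from each other 2.08-fold. The Mettl14 libraries, at 57.3 and 43.2 FPKM, overlapped with them. Mettl3 males had 185.8 and 183.9 FPKM and Hakai males 328.1 and 314.9 FPKM, well above both. The log2 fold change was 3.11 ± 0.32 in Hakai males (limma, adjusted p = 0.00233), an 8.31-fold higher mean. It was 2.32 ± 0.32 in Mettl3 males (limma, adjusted p = 0.00855), a 4.78-fold higher mean. In Mettl14 males it was 0.44 (95% interval -0.32 to 1.21, limma, adjusted p = 0.45), and it changed sign to -0.07 without yw male replicate 2.

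Fbp1 encodes the receptor for larval serum protein 1. Its level was 10.1 and 10.6 FPKM in yw males, 24.1 and 22.2 FPKM in Mettl3 males and 110.5 and 98.9 FPKM in Hakai males. The Mettl14 libraries were at 11.8 and 25.6 FPKM, a 2.16-fold gap that covers the Mettl3 values. The 10.1-fold higher mean in Hakai males was a log2 fold change of 3.22 ± 0.31 (limma, adjusted p = 0.00169). The call in Mettl3 males (1.09 ± 0.31 on the log2 scale) rested on the unadjusted p of 0.0106 and missed 0.05 after adjustment (limma, adjusted p = 0.0813). The SE takes in the gap of the Mettl14 libraries. With the Mettl3 and yw male libraries alone, limma gave an adjusted p of 0.0105. Under the other settings without a single library left out, it was 0.0522 to 0.1. The estimate for Mettl14 males was 0.71 (95% interval -0.03 to 1.45), with 1.23, a call, when Mettl14 replicate 1 was left out and 0.18 when replicate 2 was.

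Fbp2, the relative of alcohol dehydrogenase, was at 31.1 and 24.5 FPKM in yw males and 36.7 and 40.6 FPKM in Mettl14 males. It was at 81.5 and 82.1 FPKM in Mettl3 males and 207.0 and 235.0 FPKM in Hakai males. No male groups overlapped. The means in Hakai and Mettl3 males were 7.95-fold and 2.94-fold that in yw males. The log2 fold change was 2.95 ± 0.14 in Hakai males (limma, adjusted p = 0.000144) and 1.53 ± 0.14 in Mettl3 males (limma, adjusted p = 0.00182). For Mettl14 males it was 0.47 ± 0.14 (limma, adjusted p = 0.0987) and not called.

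**Figure D2:**
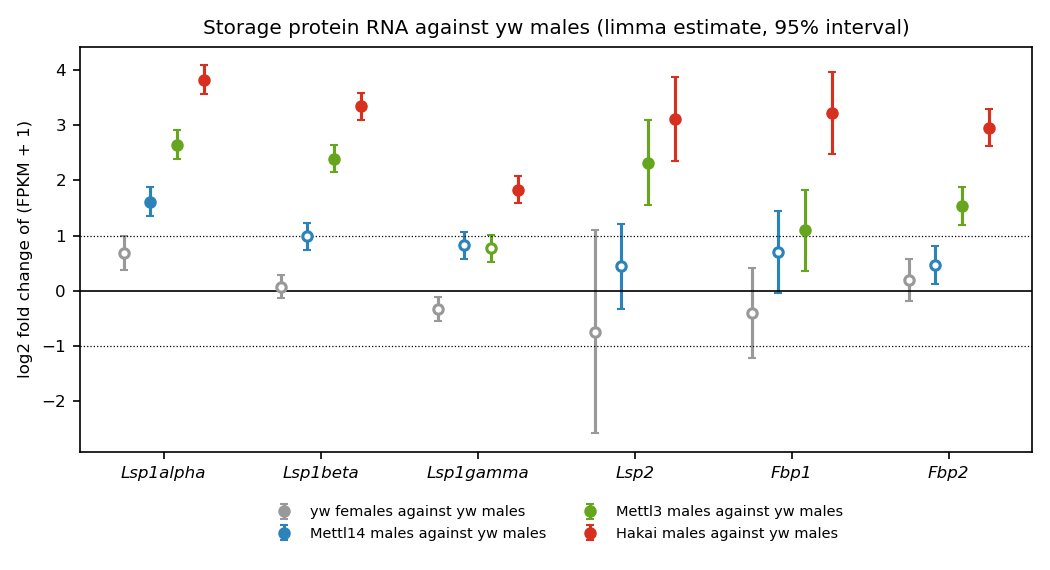
log2 fold change of FPKM + 1 (vertical axis) of each storage protein gene in yw females and in males of each mutant against yw males. Points are limma estimates, bars are 95% intervals, open points were not called and dotted lines mark a log2 fold change of 1 and -1. The Hakai estimates run from 1.83 for Lsp1gamma to 3.82 for Lsp1alpha, and the widest intervals are those of Lsp2 and Fbp1.

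The spread between replicate libraries was uneven among the genes. In yw females, Lsp2 was at 11.7 and 38.4 FPKM, a gap reached by 0.261% of the 10349 genes with a group mean of at least 1 FPKM. Fbp1 ran the other way in the same libraries, at 10.5 and 5.42 FPKM, a gap reached by 1.08% of them. The gap of Lsp2 in yw males was reached by 2.11% of 12874 genes, and that of Fbp1 in Mettl14 males by 1.62% of 13093. The Lsp1 genes had no such gap in any group. Lsp2 and Fbp1 therefore had the largest errors of the group in every comparison. The fit of the males takes 1 spread per gene over its 8 libraries, so their SE was 0.319 and 0.308 in each male comparison. That includes Hakai against Mettl3 males, where the replicates of Lsp2 and Fbp1 lay within 1.12-fold of each other.

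The female and male yw flies were compared to ask whether the sexes differ in storage protein RNA. None of the 6 genes was called by limma, where 9.2% of 12778 tested genes were called higher and 22.9% lower in females. An unadjusted p under 0.05 was found for 2 of the 6, and the share of all tested genes with such a p is not given here. Lsp1alpha was at 3.44 FPKM in each female library, 1.95-fold the male mean, with a log2 difference of 0.69 ± 0.11 (limma, adjusted p = 0.00803). Lsp1gamma was at 16.2 and 17.1 FPKM in females, below both male libraries, with a log2 difference of -0.33 ± 0.08 (limma, adjusted p = 0.0261). When all libraries were scaled to equal medians, Lsp1alpha was called (1.06) and the difference of Lsp1gamma changed sign (0.04). Lsp1beta had 17.6 and 17.3 FPKM and Fbp2 31.5 and 32.1 FPKM in females, with log2 differences of 0.08 (95% interval -0.13 to 0.28) and 0.20 (95% interval -0.18 to 0.57). For Lsp2 and Fbp1 the sexes overlapped, and the intervals of the log2 difference ran from -2.58 to 1.11 and from -1.22 to 0.42. The estimate for Lsp2 was 0.08 without female replicate 1 and -1.56, a call, without female replicate 2.

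The mutants were also set against each other. Hakai exceeded Mettl14 males in all 6 genes, against 1.11% of tested genes called higher. Their log2 differences were 2.67 ± 0.32 for Lsp2, 2.51 ± 0.31 for Fbp1, 2.48 ± 0.14 for Fbp2, 2.35 ± 0.10 for Lsp1beta, 2.20 ± 0.11 for Lsp1alpha and 1.01 ± 0.10 for Lsp1gamma. The last lost its call without Mettl14 replicate 1 (0.98) or Hakai replicate 2 (0.91). The limma adjusted p was 0.00657 or lower for each gene. No libraries of these groups overlapped, but the share of all tested genes without overlap is not given here.

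In Mettl3 against Mettl14 males 5 estimates were above 0 and 4 of the 6 genes were called higher, against 2.08% of tested genes. The log2 difference was 1.87 ± 0.32 for Lsp2, 1.41 ± 0.10 for Lsp1beta, 1.06 ± 0.14 for Fbp2 and 1.04 ± 0.11 for Lsp1alpha, each with a limma adjusted p of 0.0162 or lower. The call of Lsp1alpha ended without Mettl3 replicate 1 (0.998) or Mettl14 replicate 2 (0.98), and that of Fbp2 without Mettl14 replicate 1 (0.99). Fbp1 and Lsp1gamma were not called, and the interval for Fbp1 ran from -0.35 to 1.12.

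In Hakai against Mettl3 males all 6 estimates were above 0 and 4 of the 6 genes were called higher. Of tested genes, 1.9% were called higher (248 genes, and 450 without Hakai replicate 1). Fbp1 led with a log2 difference of 2.13 ± 0.31, followed by Fbp2 with 1.42 ± 0.14, Lsp1alpha with 1.17 ± 0.11 and Lsp1gamma with 1.07 ± 0.10 (limma, each adjusted p 0.00931 or lower). Lsp1gamma fell to 0.96 and out of the calls without Hakai replicate 2. Lsp1beta had a log2 difference of 0.95 ± 0.10 (limma, adjusted p = 0.00357), under the fold of a call, and 1.00 with a call without Hakai replicate 1. For Lsp2 it was 0.80 (95% interval 0.03 to 1.56, limma, adjusted p = 0.167). The libraries of the 2 mutants did not overlap for any of the 6 genes, again without the share of all tested genes beside it.

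Because FPKM are per length, the levels of the 3 Lsp1 genes can be compared within a library. Their summed level was 39.5 FPKM in each yw male library and 280.9 and 304.8 FPKM in Hakai males. In yw males Lsp1gamma gave the largest share, 52.6% and 54.8%, with 42.4% and 41.2% from Lsp1beta and 5.0% and 3.93% from Lsp1alpha. In Mettl3 males Lsp1beta gave 62.7% and 63.7% and Lsp1gamma 25.6% and 25.4%. Hakai males had a similar make-up, with 60.4% and 60.3% from Lsp1beta and 25.8% and 27.6% from Lsp1gamma. In Mettl14 males Lsp1gamma led with 46.2% and 50.1%, and Lsp1beta gave 44.2% and 40.7%. The share of Lsp1alpha was 9.14% to 13.8% in the mutant libraries and 9.08% to 9.22% in yw females.

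**Figure D3:**
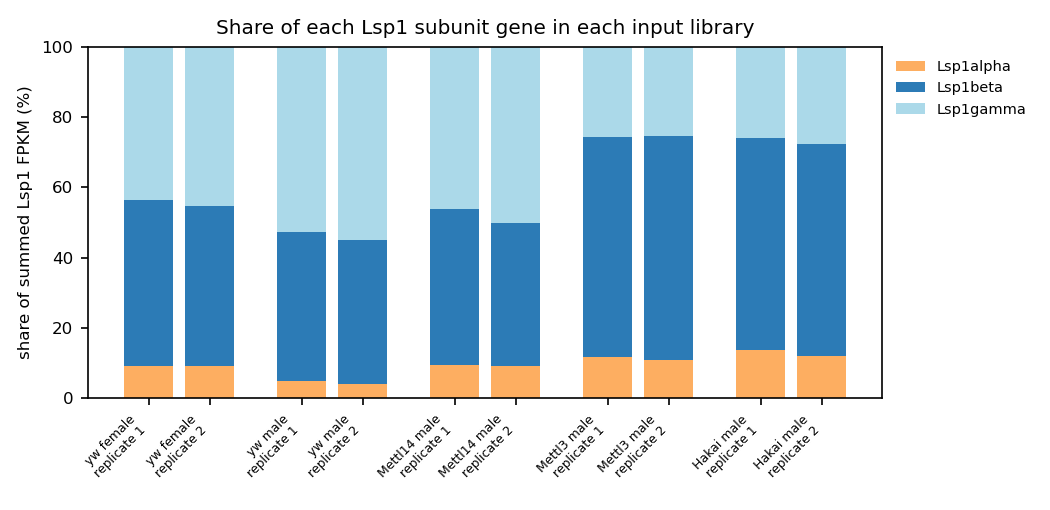
Share of Lsp1alpha, Lsp1beta and Lsp1gamma (stacked, %) in the summed Lsp1 FPKM of each of the 10 input libraries. Lsp1gamma is at 52.6% and 54.8% in yw males, between 25.4% and 27.6% in the Mettl3 and Hakai libraries and at 46.2% and 50.1% in Mettl14.

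The sum over all 6 genes was 132.9 and 99.7 FPKM in yw males and 90.9 and 113.8 FPKM in yw females. It was 187.0 and 187.2 FPKM in Mettl14, 434.6 and 433.4 FPKM in Mettl3 and 926.5 and 953.6 FPKM in Hakai males. In Hakai males it made up 0.157% to 0.164% of all FPKM of a library, and in the yw libraries 0.0165% to 0.0233%. Lsp2 stood at percentile 98.3 and 98.5 of all genes by level in the Hakai libraries. Lsp1alpha stood at percentile 30.3 and 33.2 of all genes in yw males and 85.6 and 86.8 in Hakai males.

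Peaks of m6A antibody signal were called by the authors once per group, from the IP against the input libraries, so the lists have no replicate and were compared without a test. Fold enrichment is IP over input. Among genes with a mean of at least 1 FPKM in the group, 74.2% had a peak in the yw female list, 71.4% in yw males, 68.5% in Mettl14, 76.0% in Mettl3 and 69.7% in Hakai males. Of the 6 storage protein genes, 3 had a peak in yw females, 4 in yw males, 2 in Mettl14, 3 in Mettl3 and 2 in Hakai males. With 6 genes, these counts cannot be set apart from the shares of all genes. Lsp1alpha and Lsp1beta had no peak in any list, also in Hakai males, where Lsp1beta was at a mean of 176.7 FPKM.

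Fbp1 was the only gene of the group with a peak under its own name in all 5 lists. Its peak covered the last part of the gene, in the 3′ UTR. The fold enrichment was 5.2 in yw females, 4.49 in yw males, 3.25 in Mettl14, 3.84 in Mettl3 and 4.01 in Hakai males. In yw males the peak lay at 3L:14094589-14094798. Its width was 300 bases in yw females, 210 in yw males and in Mettl3, 120 in Hakai and 61 in Mettl14 males, and it reached the end of the gene in each list. Mettl3 males had another peak in an exon of Fbp1 with a fold enrichment of 1.68.

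Fbp2 had a peak annotated to its 3′ UTR in yw males, at 2L:9427231-9427857, with a fold enrichment of 3.81. The peak was 2.85 in Mettl14 and 2.42 in Hakai males. In yw females and Mettl3 males, whose counts of 3 genes leave out Fbp2, no peak was listed under its name, but a peak that covers 448 and 478 of its bases was listed under the 5′ UTR of the overlapping gene CG42847, with a fold enrichment of 2.83 and 3.61. By position, a peak over the 3′ part of Fbp2 was thus present in all 5 lists.

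Lsp2 and Lsp1gamma had 3′ UTR peaks in the yw and Mettl3 lists and none in the Mettl14 and Hakai lists. In yw males Lsp2 had overlapping peaks with fold enrichments of 5.13 (3L:12131630-12131809) and 2.72. They were 2.82 and 1.7 in Mettl3 males, and 1 peak of 1.12 was listed in yw females. Lsp1gamma had a fold enrichment of 2.44 in yw males (3L:68787-68995), 1.6 in Mettl3 males and 1.25 in yw females. Yw females alone had a peak in the 5′ UTR of Lsp1gamma, at the start of the gene (3L:66430-66609), with a fold enrichment of 4.04. Of the 5 peaks in yw males, 3 had no partner overlapping by more than 50% of the smaller peak in Mettl14 males, the same 3 had none in Hakai males, and all had one in the Mettl3 and yw female lists. Of all 20153 yw male peaks, 28.6% had no partner in Mettl14, 24.9% in Hakai and 23.3% in Mettl3 males, and 27.3% in yw females. For the 11403 yw male peaks in 3′ UTRs, where all 5 lie, the shares were 13.2%, 13.3%, 9.24% and 27.6% in this order. The 3 peaks came from only 2 genes, since they were the peak of Lsp1gamma and the overlapping peaks of Lsp2, so the count is too small to set apart from these shares. Input RNA of Lsp1gamma was above the yw male level in all mutants, while that of Lsp2 was 8.31-fold higher in Hakai males and overlapped with yw males in Mettl14. The median fold enrichment of 3′ UTR peaks was 3.11 for yw males, 3.09 for Mettl14, 3.07 for Hakai and 2.76 for Mettl3.

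**Figure D4:**
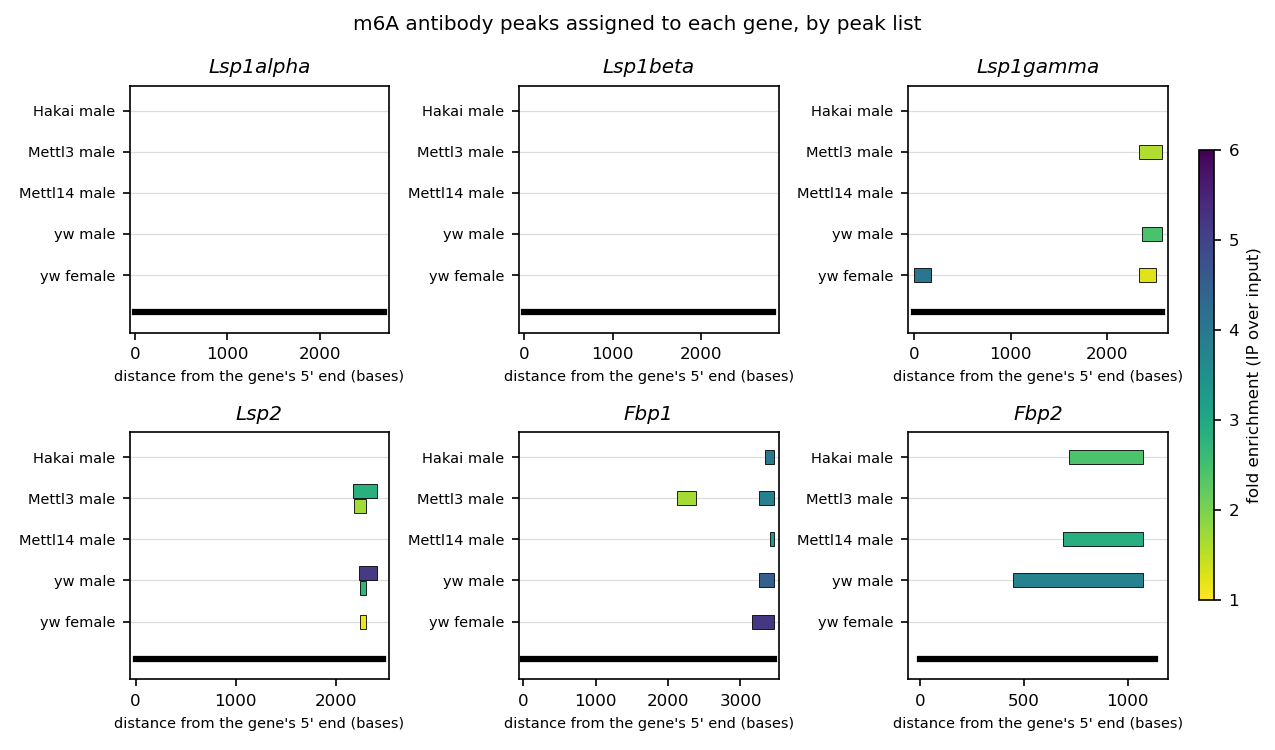
Peaks assigned to the 6 genes in the 5 lists, by distance from the 5′ end of the gene in bases (horizontal axes). The black bar is the gene, boxes are peaks from their outer ends, and colour gives fold enrichment of IP over input. Peaks lie near the 3′ end, apart from the 5′ peak of Lsp1gamma in yw females (4.04) and the exon peak of Fbp1 in Mettl3 males (1.68), and Lsp1alpha and Lsp1beta have none.

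Other genes of fat body function and of the larval to adult transition were read from fixed lists. For these lists and the markers below, counts of genes with an unadjusted p under 0.05 are given for some of the comparisons. The share of all tested genes with such a p is not given, so these counts are not read as results. Of 13 genes of lipid transport and storage, 1 was called higher in Mettl3 and 1 in Mettl14 males, in both apolpp, which encodes the main lipoprotein precursor of the hemolymph (log2 fold changes of 1.62 and 1.42). None was called in Hakai males, where 5 had an unadjusted p under 0.05, all higher, and apolpp had a log2 fold change of 0.25. In Mettl3 males 4 genes were higher and 2 lower with such a p, and in Mettl14 males 5 and 2. The list medians were 0.24 in Hakai, 0.21 in Mettl14 and 0.05 in Mettl3 males. None of 5 genes of glycogen and trehalose metabolism was called or had an unadjusted p under 0.05 in the limma test of any mutant. Adh and Adhr, relatives of Fbp2, were not called and had no such p, with Adh at 1167 and 1320 FPKM in yw males and 1502 and 1876 in Hakai males.

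The prophenoloxidases belong to the protein superfamily of the hexamerins. Only PPO2 passed the level for testing in males, and limma did not call it in any mutant, with log2 fold changes of -0.61 in Mettl3 (unadjusted p = 0.0343, adjusted p = 0.155), 0.29 in Mettl14 and -0.02 in Hakai males. Of 6 tested genes for signals of the fat body, Hakai males had Ilp6, which encodes an insulin-like peptide, called higher (log2 fold change of 1.20) and sug, which encodes a transcription factor of sugar metabolism, called lower (-1.03, limma adjusted p = 0.0676), against 1.72% of tested genes called lower. None was called in Mettl3 or Mettl14 males, where 3 each had an unadjusted p under 0.05. Ilp6 stood at 0.96 and 0.87 there. Yolk proteins are made by the adult female fat body. Yp3 was called higher in Hakai (3.81) and Mettl14 males (3.59), Yp1 in Mettl14 males (2.08, limma adjusted p = 0.133), and none of the 3 in Mettl3 males, where no unadjusted p was under 0.05. The Mettl14 libraries were at 3.63 and 24.3 FPKM for Yp1, so that its call rests mostly on 1 library. In yw females all 3 were called, with a median of 9.03.

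Fbp1 is a gene that responds to ecdysone in the larva. None of 11 tested genes of the ecdysone response and of fat body regulators was called in any mutant by limma, and 3 in Hakai, 3 in Mettl3 and 2 in Mettl14 males had an unadjusted p under 0.05. The regulator gene srp, which encodes a GATA factor of the fat body, had a log2 fold change of 0.33 in Mettl3, 0.36 in Mettl14 and 0.50 in Hakai flies. Of the salivary glue and Eig71E genes of the late larva and prepupa, 15 of 17 were in the table, and only Eig71Eb passed the level for testing. It was called higher in Mettl3 males (1.48) and had log2 fold changes of 0.78 in Mettl14 and 0.14 in Hakai males. The 15 genes summed to 1.28 to 5.50 FPKM in the male libraries. The list of larval and pupal cuticle genes had 4 tested genes, Pcp, Edg91, Acp1 and Acp65Aa, of which Acp1 and Acp65Aa are by name adult cuticle protein genes. Edg91 was called higher in Mettl14 males (1.65, limma adjusted p = 0.081), where 3 of the 4 were higher at an unadjusted p under 0.05. None was called in Mettl3 or Hakai males, where 0 and 1 had such a p.

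None of 6 tested genes for tanning of the new adult was called in a mutant, and 1 in Hakai, 1 in Mettl3 and 0 in Mettl14 males had an unadjusted p under 0.05 in limma. Of 12 genes for dissociation and death of fat body cells, rpr, which promotes apoptosis, was called higher in Hakai males (1.39). None was called in Mettl3 or Mettl14 males, where 1 and 2 had an unadjusted p under 0.05. Between the sexes, females had fit, apolpp, Lsd-2, Pcp and Acp65Aa called higher and grim called lower among these lists.

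**Figure D5:**
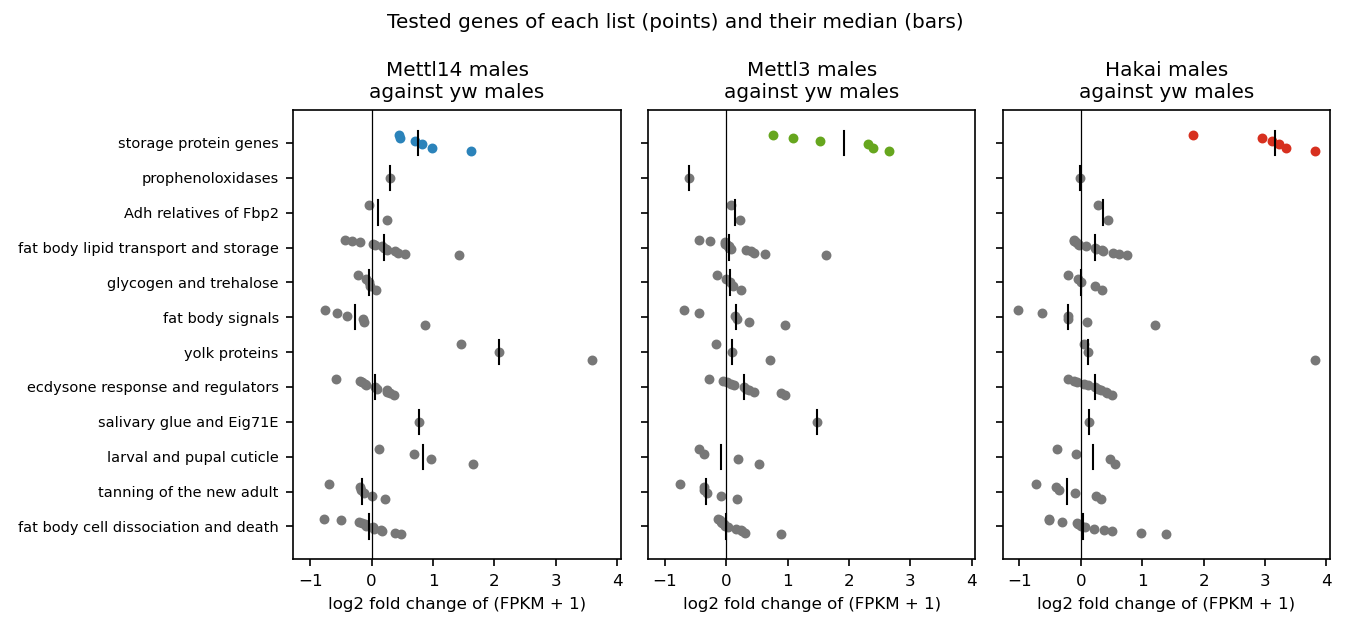
log2 fold change of FPKM + 1 (horizontal axes) of the tested genes of each list in Mettl14, Mettl3 and Hakai males against yw males. Points are genes and short bars are list medians. The storage protein genes have medians of 0.76, 1.93 and 3.17, and single genes such as Yp3 in Hakai males (3.81) lie as far out in other lists.

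Markers of other cell types were measured beside these results, and their part in the storage protein levels was not tested. Adult fat body markers (Yp1, Yp2, Yp3, apolpp and Lsd-1) summed to 91.1 to 105.8 FPKM in yw males. The sum was 181.1 to 186.9 with Hakai mutated, 204.7 to 205.4 with Mettl3 mutated and 232.8 to 300.3 with Mettl14 mutated. Different genes made up these rises. The 3 yolk protein genes alone summed to 5.27 to 7.37 FPKM in yw males and 52.6 to 66.2 with Hakai mutated. They summed to 8.59 to 8.80 with Mettl3 mutated and 39.8 to 104.9 with Mettl14 mutated. The median log2 fold change of the 5 markers was 0.25 for Hakai, 1.46 for Mettl14 and 0.095 for Mettl3. The sum is therefore not read as an amount of adult fat body. Yp3, Yp1 and apolpp were called in Mettl14, apolpp in Mettl3 and Yp3 in Hakai males. Midgut trypsins summed to 313.4 to 590.8 FPKM in yw males, 72.6 to 184.4 in Hakai males, with betaTry and epsilonTry called lower, and 591 to 1551 in Mettl14 males, with both called higher. They were at 310.8 to 320.6 FPKM in Mettl3 males.

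The 5 hemocyte markers summed to 50.7 to 52.7 FPKM in yw males, with 65.2 to 66.3 for Hakai, 55.0 to 56.8 for Mettl14 and 43.6 to 45.7 for Mettl3. NimC1 was called higher in Mettl14 and Hakai males, and Hml lower in Mettl3 males, where 1.32% of tested genes were called lower. The 3 flight muscle markers summed to 6368 to 8652 FPKM in yw males, with 6427 to 7653 for Hakai, 4907 to 5513 for Mettl14 and 3349 to 3377 for Mettl3, with Act88F called lower in Mettl3 males. Of the male markers, dj was called lower in Mettl3 males and SP higher in Mettl3 and Mettl14 males. No eye marker was called in a mutant by limma, and 1 of 3 in Hakai, 1 in Mettl3 and 0 in Mettl14 males had an unadjusted p under 0.05. No marker was called lower in Mettl14 males, where 1.23% of tested genes were. After adjustment, limma gave 0.194 for betaTry in Mettl14, 0.0731 for NimC1 in Hakai and 0.144 for dj in Mettl3 males, so these calls rest on the unadjusted p.

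Across the 10 input libraries the 6 genes followed each other, with Pearson r of log2(FPKM + 1) from 0.809 (Lsp2 and Fbp1) to 0.984 (Lsp1alpha and Lsp1beta). These are descriptions over libraries that share their 5 groups. Among 13123 genes with a mean of at least 1 FPKM, those most like the mean of the 6 were CG42792 (r = 0.9891), Ama (0.9877), Obp99b (0.9805), CG10467, CG34206, Cyp28d1 (0.9735), IP3K1, AMPdeam, CG42662 and CG9662 (0.9619). CG42792 had a mean of 0.645 FPKM in yw males, 1.59 in Mettl14, 6.57 in Mettl3 and 21.9 in Hakai males. Obp99b, of the odorant binding protein family, had 63.9, 163.9, 226.0 and 617.5 FPKM in these groups. Cyp28d1, a cytochrome P450 gene, had 23.9, 39.4, 63.8 and 83.5 FPKM and was the gene most like Lsp1alpha (0.9925) and Lsp1beta (0.9919).

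For the other genes the nearest patterns were different. Lsp1gamma was closest to Obp99b (0.9837), CG4269 (0.9802) and the immune peptide gene IM3 (0.9792), which had means of 437.0 FPKM in yw males and 1078 in Hakai males. Lsp2 was closest to CG5758 (0.9542), lncRNA:CR43417 (0.9503) and CG42792 (0.9434). Fbp1 was closest to CG6762 (0.9633), CG9662 (0.9523) and CG6125 (0.947). Fbp2 was closest to CG42792 (0.9775), lncRNA:CR44298 (0.9733) and CG34206 (0.9732). Lsp1alpha also had CG10467 (0.9834) among its nearest genes, and Lsp1beta had Ama (0.9852) and CG42792 (0.9847).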

How the data were processed

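Total RNA of whole flies was selected for poly(A) and fragmented, and strand-specific libraries were made by the authors from m6A antibody-bound and from input fragments. According to the methods of the study, reads were trimmed with fastp 0.19.4 and mapped with HISAT2 2.0.4 to annotation version 96. The authors made the deposited FPKM with StringTie 1.3.4, and whether strand was used is not given in the sources used here. The deposited fold enrichment is a ratio of IP over input by exomePeak 1.9.1, with log10 p-values and FDR deposited as a score, and ChIPseeker 1.18.0 gave the annotation. The authors' own tests of expression and splicing were not used.

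Since FPKM are not counts, no count test was run. limma 3.58.1 in R 4.3.3 (lmFit, eBayes with trend) was fitted to log2(FPKM + 1) of the 8 male input libraries, and of the 4 yw input libraries for the sexes, over genes whose mean FPKM reached 1, with Benjamini-Hochberg adjustment over all genes tested. A call needed p under 0.05, before adjustment, and a log2 fold change of 1 or more in either direction. Tables and plots were made in Python 3.11.15 (numpy 2.4.6, pandas 2.3.3, matplotlib 3.10.9). The fit was tested on simulated data. Precision is limited by 2 libraries per group, and no read depth is given. The members and the gene lists were chosen with earlier results of these data known. Named were all 6 genes, of each list at most 4 called genes with the largest change, the 10 genes most like the mean of the members by Pearson r and the 3 most like each. Eig71Ed and Eig71Eh were not matched in the table. Alternatives were pseudocount 0.1, no filter or a mean FPKM of at least 5, other sets of libraries, equal medians, no trend, a replicate block, leaving out each library, and stricter peaks. No sequences are printed.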

Additional observations from a re-analysis of the deposited data

How the results depend on the processing

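The counts of storage protein genes called in Hakai (6) and Mettl3 males (5) against yw males were the same under every alternative and without any library, except that Fbp1 in Mettl3 males misses an adjusted p of 0.05 (log2 fold change of 1.09). The count in Mettl14 males was 2 with a pseudocount of 0.1, where Lsp1beta had 1.03, and 1 to 2 when a library was left out. The count in yw females was 1 with equal medians (Lsp1alpha, 1.06), and 0 to 1 when a library was left out. Library medians stood at -0.35 in yw females and 0.17 in Mettl14 males from their mean on the log2 scale. Equal medians turned the difference of Lsp1gamma to 0.04 between the sexes and to 0.035 between Mettl3 and Mettl14, and moved the calls over all genes in females from 1176 higher and 2931 lower to 2284 and 2677, and in Mettl14 males from 445 and 161 to 364 and 210. A mean FPKM of at least 5, which left 9260 genes to test in males, gave 274 and 96 calls in Mettl14, 256 and 108 in Mettl3 (384 and 173 before) and 206 and 130 in Hakai males (323 and 225 before). The lower calls in Mettl3 males were 268 with a pseudocount of 0.1 and 282 without yw male replicate 1.

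Leaving out 1 library moved the log2 fold change of Lsp2 in Mettl14 males between -0.069 and 0.959, that of Lsp2 in females between -1.558 and 0.081, that of Fbp1 in females between -0.818 and 0.017, and that of Fbp1 in Mettl3 against Mettl14 males between -0.139 and 0.911. The cause was not tested. Of 413 estimates for single genes under other settings, 407 kept direction and call, 3 gained a call, 1 lost it and 2 changed sign. Of 312 with a library left out, 297 kept both, 5 gained a call, 6 lost it and 4 changed sign. With a fold enrichment of at least 5, 1 peak remained in each yw list, at Fbp1 in females and Lsp2 in males, and 0 remained in the Mettl3, Mettl14 and Hakai lists, where 20.6% of all yw female and 24.4% of all yw male peaks and 13.7%, 18.7% and 21.6% of those of the mutants reached it. With so few peaks, no difference can be read from this. With 50% of both peaks required, 1 of 5 yw male peaks had no partner in the yw female list, against 46.3% of all. The yw male peak of Fbp1 also lost its partner in Mettl14 males, where the peak was 61 bases wide against 210 in yw males. In that list 45.1% of all yw male peaks had no partner by this rule. In the Mettl3 and Hakai lists no further peak of these genes lost its partner. An FDR of at most 0.01 kept every peak.

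With a replicate block, the counts of called genes were 5 in Mettl3, 1 in Mettl14, 6 in Hakai males and 0 in females, as without it, and no call of a storage protein gene changed. Same-numbered libraries deviated together in yw, Mettl14 and Hakai males (r from 0.464 to 0.664 between these groups) but not with Mettl3 males or females (r of -0.04 to 0.11). The labels state no shared batch for a number, so the block was kept as an alternative.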
